A study of Mus musculus with 8 samples.

Results

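Interferon-stimulated genes are switched on when a cell senses viral RNA or receives interferon, and MHC class I genes let every nucleated cell show peptides from its own proteins to cytotoxic T cells. The members described here are 42 mouse genes chosen by symbol from these 2 linked programmes, among 55291 gene symbols in the deposited tables, and all 42 were found. They were compared in the collecting ducts of the outer medulla, dissected from kidneys of the inbred mouse strain C57BL/6J. Mice ate a high-salt diet (3%) or a normal-salt diet (0.3%) for 3 days. There were 4 libraries per diet, each from 100 to 120 ducts pooled from 1 mouse, and the labels read here state no age, sex or further genotype. Depth was 69.2 to 87.7 times 1e+06 estimated counts per high-salt library and 64.8 to 94.1 times 1e+06 per normal-salt library. The ducts were freed with a digesting enzyme, a step that mice of both diets shared. The question the comparison answers is which transcripts of this segment differ with salt intake.

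Type I interferons bind a receptor made of the IFNAR1 and IFNAR2 chains, and type II interferon (interferon gamma) binds IFNGR1 and IFNGR2. Kinases at these receptors activate STAT proteins, which bind DNA with IRF9 at interferon-stimulated response elements or without it at gamma-activated sites. The genes so induced include RNA sensors, antiviral effectors and the machinery that loads peptides onto MHC class I molecules. In kidney tubules the class I machinery is present without infection, and the collecting duct meets bacteria that climb from the bladder.

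Many of these genes share a sequence element in their promoters, and the windows of 6 members are printed to show it. They are Ddx58, 4 classical interferon-stimulated effectors (Isg15, Ifit1, Oas1a and Gbp3) and B2m, the shared light chain of class I. Ddx58 has the largest fold change on the log2(CPM + 1) scale among the tested members. Each window runs from 250 bases before to 50 bases after a gene's annotated start, is written 5' to 3' on the gene's own strand, and comes from RefSeq on GRCm38.p6, the assembly behind mm10. Capitals mark matches to the core of the interferon-stimulated response element (GAAA, any 2 bases, GAAA) on either strand, and overlapping matches run together.
Ddx58: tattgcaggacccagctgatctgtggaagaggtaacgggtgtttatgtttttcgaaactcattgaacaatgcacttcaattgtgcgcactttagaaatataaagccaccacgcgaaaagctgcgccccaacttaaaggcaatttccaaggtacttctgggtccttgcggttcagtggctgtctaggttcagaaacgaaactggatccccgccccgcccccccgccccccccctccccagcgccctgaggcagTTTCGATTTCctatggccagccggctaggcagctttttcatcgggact
Isg15: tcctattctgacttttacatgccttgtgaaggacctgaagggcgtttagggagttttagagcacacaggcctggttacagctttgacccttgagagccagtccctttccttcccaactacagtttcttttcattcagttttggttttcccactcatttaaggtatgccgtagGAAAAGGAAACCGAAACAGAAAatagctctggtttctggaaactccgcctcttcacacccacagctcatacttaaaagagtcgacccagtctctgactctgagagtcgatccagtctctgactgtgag
Ifit1: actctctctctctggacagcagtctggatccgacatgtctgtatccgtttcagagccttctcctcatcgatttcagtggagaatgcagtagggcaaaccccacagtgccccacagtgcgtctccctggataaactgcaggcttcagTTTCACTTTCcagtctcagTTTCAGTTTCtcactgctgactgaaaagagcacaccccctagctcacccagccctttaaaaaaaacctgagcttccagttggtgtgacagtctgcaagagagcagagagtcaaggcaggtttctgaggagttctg
Oas1a: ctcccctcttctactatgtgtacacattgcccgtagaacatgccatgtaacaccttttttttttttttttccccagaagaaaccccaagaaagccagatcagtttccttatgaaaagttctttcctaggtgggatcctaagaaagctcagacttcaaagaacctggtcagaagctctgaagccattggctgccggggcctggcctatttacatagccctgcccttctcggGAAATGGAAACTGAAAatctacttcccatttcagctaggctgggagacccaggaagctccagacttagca
Gbp3: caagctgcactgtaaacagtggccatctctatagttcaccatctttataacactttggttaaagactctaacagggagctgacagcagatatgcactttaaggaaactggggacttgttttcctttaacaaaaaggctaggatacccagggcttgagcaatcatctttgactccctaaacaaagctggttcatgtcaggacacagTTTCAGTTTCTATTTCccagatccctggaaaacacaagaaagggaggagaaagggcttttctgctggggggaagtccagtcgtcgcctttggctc
B2m: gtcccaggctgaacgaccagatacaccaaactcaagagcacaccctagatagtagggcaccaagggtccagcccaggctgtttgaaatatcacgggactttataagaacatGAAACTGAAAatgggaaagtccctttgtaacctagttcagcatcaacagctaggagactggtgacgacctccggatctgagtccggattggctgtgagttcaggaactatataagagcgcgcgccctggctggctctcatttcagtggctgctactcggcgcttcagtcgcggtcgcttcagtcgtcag
The Ddx58 window lies at chr4:40239776-40240075 on the minus strand and the Isg15 window at chr4:156200769-156201068 on the minus strand. The Ifit1 window lies at chr19:34640639-34640938 on the plus strand and the Oas1a window at chr5:120907476-120907775 on the minus strand. The Gbp3 window lies at chr3:142559794-142560093 on the plus strand and the B2m window at chr2:122147437-122147736 on the plus strand. Isg15 holds 3 overlapping matches that start 78, 72 and 66 bases before the gene's start. Ifit1 holds 2 separate matches in the reverse orientation, 104 and 85 bases before it, and B2m holds 1 match 139 bases before it. In Ddx58 the match lies in the transcribed part, beginning at base 3.

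Windows were given for 35 of the 42 members, and Nlrc5, Dhx58, Usp18, Mx1, Mx2, Rtp4 and Tap2 had none. A match to this response element core stood in the window of 16 of the 35 members (45.7%), against 3.99% of all 27025 genes in that table. A match to TTCNNNGAA, the core of the gamma-activated site, which reads the same on both strands, stood in 10 of the 35 (28.6%), against 9.55% of all genes. The members were chosen as interferon-responsive genes, so these shares describe the family and are not a result of the diets.

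Across the comparison, members of this family did not pass the test. Of the 42 members 38 were tested, having a CPM (a count divided by its library's total and scaled) of 1 or more in 4 or more of the 8 libraries, and by limma 0 of the 38 had an adjusted p under 0.05 over all 13401 genes tested. Over all genes 0.0821% were called. At an unadjusted p under 0.05 there was 1 member, Ddx58, which is 2.63% of the 38, against 10.3% of all genes tested. The diets did not overlap in 1 member, again Ddx58 (2.63%), against 6.40% of all genes. Mean log2(CPM + 1) was higher under high salt in 21 members and lower in 17. The median log2 fold change of the 38 was 0.04, beside 0.01 over all genes tested, and the members ranged from -0.30 to 0.48.

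The intervals limit how large an overlooked change could be. The 95% interval of the fold change lay within a 2-fold change in either direction for 37 of the 38 members (97.4%), as it did for 92.8% of all genes, the exception being Nlrc5. It lay within a 1.5-fold change for 26 members (68.4%), beside 70.2% of all genes. All are fold changes of log2(CPM + 1), so changes of genes near 1 CPM come out too small.

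**Figure D1:**
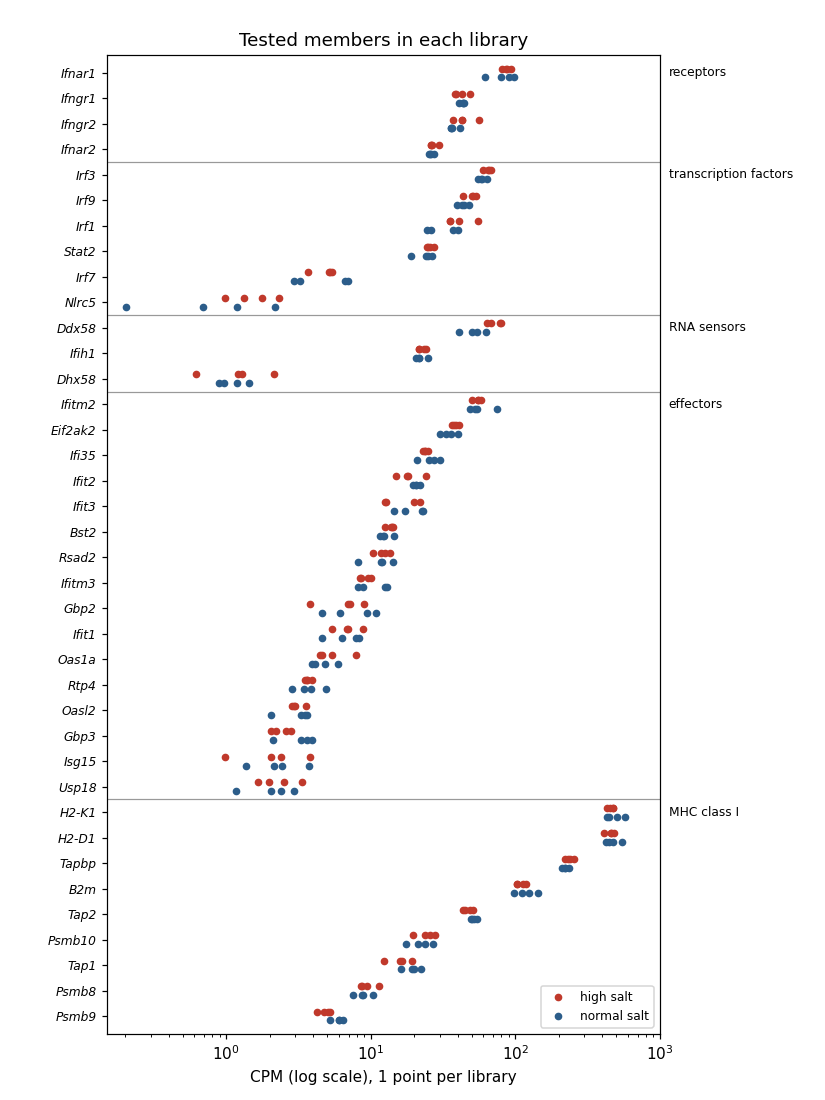
CPM of the 38 tested members in each library on a log axis, with 1 point per library, high salt drawn above normal salt for each gene, and genes grouped by role. The diets overlap for every gene drawn except Ddx58, and the class I genes H2-K1 and H2-D1 stand highest.

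The receptors were expressed in every library. By TPM (transcripts scaled to a common library total, a level that takes transcript length into account) Ifnar2 was the highest of the 4 with a mean of 38.0 over all libraries, and Ifngr2 the lowest with 22.2. Ifnar1 had 80.2, 93.2, 87.7 and 85.5 CPM in high-salt libraries 2, 3, 4 and 6, against 61.8, 90.6, 79.7 and 98.2 CPM in normal-salt libraries 1, 2, 3 and 6. All high-salt values lay inside the normal-salt range (log2 fold change 0.09, SE 0.13, adjusted p = 0.868). Ifnar2 had 25.97, 29.4, 26.3 and 26.1 CPM under high salt, against 25.9, 25.8, 27.5 and 25.3 CPM under normal salt, a difference of 0.04 on the log2 scale with a 95% interval of -0.16 to 0.24. Ifngr1, the ligand-binding chain for interferon gamma, averaged 41.9 ± 4.87 CPM under high salt and 42.9 ± 1.36 CPM under normal salt (SD, n = 4 each).

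Ifngr2, the signalling chain of the interferon gamma receptor, depended on the unit. It had 36.9, 42.5, 56.2 and 43.0 CPM under high salt, against 36.5, 41.5, 36.1 and 35.8 CPM under normal salt (log2 fold change 0.23, SE 0.13, adjusted p = 0.573). In TPM it had 23.4, 28.5, 35.2 and 25.7 under high salt, against 13.8, 18.6, 15.9 and 16.4 under normal salt. The CPM values of the diets overlapped and the TPM values did not. The TPM fold change on the log2(TPM + 1) scale was 0.76 (SE 0.15), with an unadjusted p of 0.000457 and an adjusted p of 0.127 by limma, so it did not pass. In the TPM values 9.40% of all genes had an unadjusted p under 0.05 and 6.14% did not overlap, and 3 of the 38 members did both (Ifngr2, Ddx58 and Psmb9).

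TPM differs from CPM in that counts are divided by transcript length before scaling, so the ratio of TPM to CPM was examined, a measure chosen after the values of Ifngr2 were seen. Divided by the median ratio of each library, it was 0.909, 0.977, 0.920 and 0.875 under high salt, against 0.646, 0.641, 0.647 and 0.645 under normal salt. The normal-salt libraries were almost equal and all high-salt libraries stood above them. By limma over 13353 genes the log2 difference was 0.51 (SE 0.03, adjusted p = 0.00570), and 0.0150% of those genes, 2 in all, were called. A mean log2 difference at least this large in either direction, without overlap of the diets, was found in 0.195% of the genes. The other 37 members had differences of -0.31 to 0.15 in this ratio and 0 of them were called. The diets did not overlap in the ratio of 5 of the 38 members (Ifngr2, Irf3, Ifit1, Rsad2 and Tap1), where 13.5% of all genes did not. The library medians were -0.77 on the log2 scale in normal-salt library 1 and -0.55 to -0.50 in the other 7 libraries. Without centring on them the difference was 0.55 with an adjusted p of 0.126, which does not pass, and with each library left out in turn it was 0.48 to 0.54, with adjusted p-values of 0.00274 to 0.0595. It passed without high-salt library 3, 4 or 6 or normal-salt library 1, and not without high-salt library 2 (0.0506) or normal-salt library 2 (0.0595), 3 (0.0566) or 6 (0.0575). GENCODE M21 (mm10) lists 3 transcripts for Ifngr2, which lies on chromosome 16, plus strand, at 91547072 to 91565623. Their lengths are 3708 bases for the coding transcript, 2516 for a processed transcript and 534 for one marked for nonsense-mediated decay. The tables hold no values per transcript, so which of them the reads were assigned to was not tested.

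**Figure D2:**
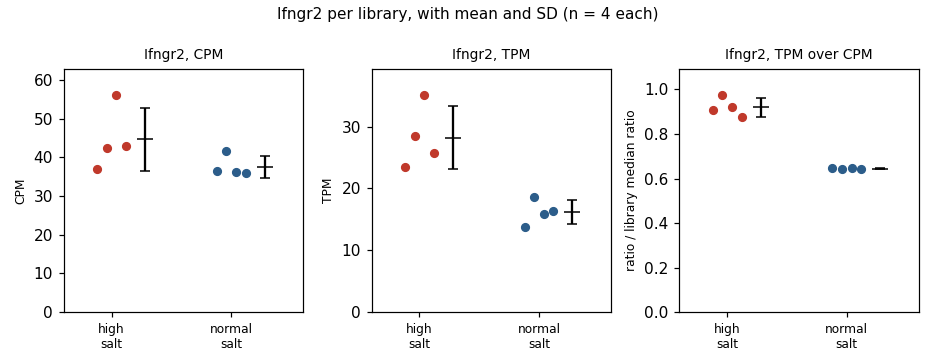
Ifngr2 in each library as CPM, as TPM and as the ratio of TPM to CPM divided by the library's median ratio, with mean and SD beside the points (n = 4 per diet). CPM overlaps between the diets, TPM does not, and the ratio is 0.875 to 0.977 under high salt against 0.641 to 0.647 under normal salt.

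All 6 transcription regulators had a higher mean log2(CPM + 1) under high salt, with log2 fold changes of 0.05 to 0.40, and 0 of the 6 passed (smallest adjusted p = 0.533). Over all genes 52.8% had a higher mean. Irf1, an early target of interferon gamma, had 35.5, 40.4, 55.2 and 35.4 CPM under high salt, against 26.1, 40.3, 24.4 and 37.0 CPM under normal salt. High-salt library 4 was the highest of all, and normal-salt libraries 2 and 6 lay among the high-salt values (log2 fold change 0.38, SE 0.19, adjusted p = 0.533). Irf9, the DNA-binding partner of STAT proteins, had 50.0005, 43.4, 53.2 and 51.0 CPM under high salt, against 42.9, 44.3, 39.3 and 47.9 CPM under normal salt, and the ranges overlapped through high-salt library 3 (0.18, SE 0.10, adjusted p = 0.591). Irf3, a factor that acts directly below the RNA and DNA sensors, was the highest of the group by TPM, with a mean of 71.2. It had 65.9, 59.2, 67.4 and 64.3 CPM under high salt, against 63.2, 57.5, 54.8 and 58.3 CPM under normal salt (0.13, SE 0.08, adjusted p = 0.641).

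Stat2, the partner of IRF9 in type I signalling, averaged 25.6 ± 1.33 CPM under high salt and 23.6 ± 3.38 CPM under normal salt. Nlrc5, the coactivator of class I genes, was the lowest of the group at 1.597 ± 0.581 and 1.06 ± 0.840 CPM under high and normal salt (SD, n = 4 each), and its interval of -0.27 to 1.06 was the only one to reach beyond a 2-fold change. Irf7, the amplifier of the type I response, had 5.42, 3.69, 5.12 and 5.25 CPM under high salt, against 2.95, 6.58, 3.25 and 6.96 CPM under normal salt. Its normal-salt libraries split into a low and a high pair around the high-salt values, and the mean in CPM itself was slightly lower under high salt, at 4.87 ± 0.797 CPM under high salt and 4.94 ± 2.13 CPM under normal salt.

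The cytosolic RNA sensors included the member with the smallest p. Ddx58, which encodes RIG-I, the sensor of uncapped viral RNA ends, had 67.6, 79.3, 78.7 and 63.2 CPM under high salt, against 40.6, 62.7, 54.6 and 49.9 CPM under normal salt. The lowest high-salt library stood just above the highest normal-salt library. The means were 72.2 ± 8.08 CPM under high salt and 51.9 ± 9.22 CPM under normal salt (SD, n = 4 each), and the log2 fold change was 0.48 (SE 0.14, 95% interval 0.18 to 0.78). Its unadjusted p was 0.00495 and its adjusted p over all genes 0.216 by limma, so it did not pass. The adjusted p was 0.135 to 0.531 over the main and 15 alternative settings and the log2 fold change 0.36 to 0.57. Ddx58 occupies 40203773 to 40239828 of chromosome 4, minus strand (GENCODE M21, mm10), where no other annotated gene overlaps it.

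The diets overlapped in the other 2 sensors. Ifih1, which encodes MDA5, the sensor of long viral RNA, had 24.2, 21.5, 23.2 and 21.5 CPM under high salt, against 21.5, 21.5, 24.8 and 20.6 CPM under normal salt, and its log2 difference of 0.03 had a 95% interval of -0.19 to 0.26. Dhx58, which encodes LGP2, a regulator of RIG-I and MDA5, had 0.616, 1.21, 1.27 and 2.14 CPM under high salt, against 1.43, 0.960, 0.892 and 1.18 CPM under normal salt. The high-salt libraries held both the lowest and the highest of these values.

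**Figure D3:**
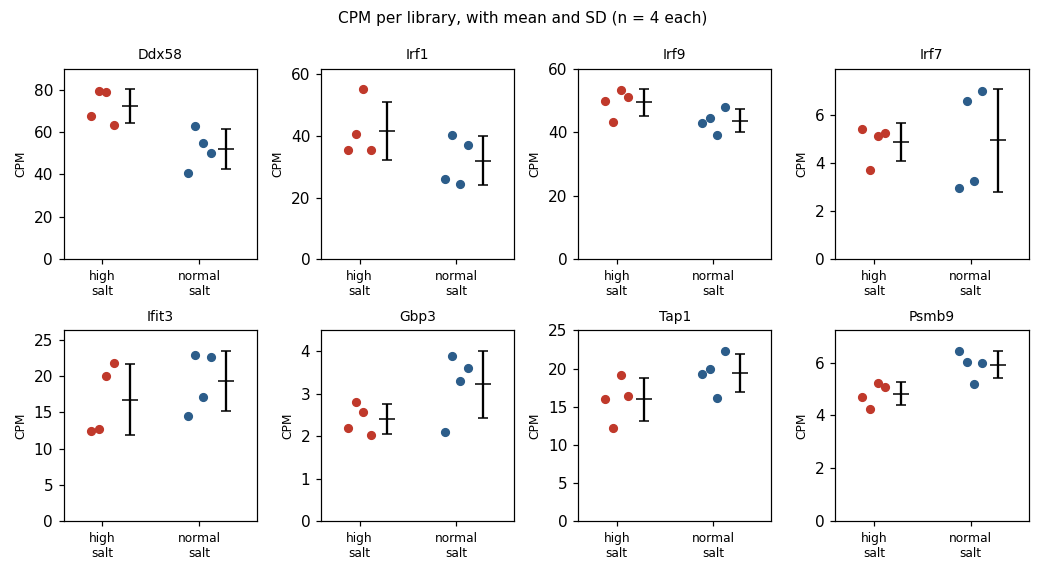
CPM of 8 members in each library, with mean and SD beside the points (n = 4 per diet). Ddx58 is the 1 gene whose diets do not overlap, and Irf7 shows normal-salt libraries at 2.95 and 3.25 CPM and at 6.58 and 6.96 CPM.

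Antiviral effectors made up 20 of the members, and 16 of them were tested. Means were higher in 6 and lower in 10 under high salt, the fold changes ran from -0.30 to 0.20 on the log2 scale, and 0 had an unadjusted p under 0.05. By TPM they ran from 2.09 for Gbp3 to 182 for Ifitm2. Gbp3, a guanylate-binding protein, had 2.20, 2.81, 2.58 and 2.04 CPM under high salt, against 2.10, 3.90, 3.302 and 3.60 CPM under normal salt, where library 1 alone lay within the high-salt range (log2 fold change -0.30, SE 0.19, adjusted p = 0.641). Eif2ak2, the kinase PKR that halts translation on viral RNA, had 38.7, 37.6, 36.4 and 40.8 CPM under high salt, against 30.2, 33.3, 35.7 and 40.3 CPM under normal salt (0.14, SE 0.10, adjusted p = 0.701). Its high-salt libraries lay close together, and normal-salt library 6 reached into their range. Ifit2, which binds viral RNA, had 14.8, 17.8, 18.1 and 23.9 CPM under high salt, against 19.5, 21.7, 20.5 and 20.5 CPM under normal salt. High-salt library 6 was above, and the other 3 below, every normal-salt library (-0.15, SE 0.14, adjusted p = 0.763).

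The IFITM proteins block entry of enveloped viruses, and their genes were expressed at very different levels. Ifitm2 had 55.1, 49.7, 57.4 and 54.9 CPM under high salt, against 74.4, 53.8, 48.5 and 52.3 CPM under normal salt. Ifitm3 had 8.61, 8.45, 9.60 and 10.1 CPM under high salt, against 12.5, 8.77, 8.14 and 12.96 CPM under normal salt. Ifitm1 had 0.684, 0.745, 0.922 and 0.491 CPM under high salt, against 1.14, 0.913, 0.287 and 0.419 CPM under normal salt, and was below the level tested. In TPM the means over all libraries were 182 for Ifitm2, 31.0 for Ifitm3 and 2.14 for Ifitm1. The highest normal-salt value of Ifitm2 and of Ifitm1 came from library 1. Of the 50-base stretches in annotated Ifitm2 transcripts 48.5% also occur in transcripts of other genes, against 10.02% for Ifitm3, so the Ifitm2 level is the less certain.

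Several classical markers of an interferon response had low mean levels over all libraries. These were 6.78 TPM for Isg15, 5.36 for Rsad2, 4.66 for Ifit1, 4.56 for Oas1a and 2.30 for Usp18. Other effectors were higher, with 18.0 TPM for Ifit3, 32.4 for Bst2 and 32.5 for Ifi35. Isg15, a ubiquitin-like modifier, averaged 2.30 ± 1.17 CPM under high salt and 2.41 ± 0.984 CPM under normal salt, and Usp18, the protease that removes it, 2.37 ± 0.737 and 2.14 ± 0.737 CPM under high and normal salt (SD, n = 4 each). Ifit1, which binds viral RNA lacking a host cap, averaged 6.97 ± 1.43 and 6.78 ± 1.67 CPM. Rsad2, which encodes viperin, averaged 12.02 ± 1.31 and 11.5 ± 2.56 CPM, again under high and normal salt. Oas1a, an enzyme whose product activates RNase L, averaged 5.57 ± 1.58 CPM under high salt and 4.67 ± 0.898 CPM under normal salt, but 57.6% of its 50-base stretches also occur in Oas1g. Ifit3 averaged 16.7 ± 4.91 CPM under high salt and 19.3 ± 4.19 CPM under normal salt, and shares 51.2% of its stretches with Ifit3b.

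The remaining tested effectors had log2 fold changes of -0.17 for Gbp2, -0.11 for Ifi35, -0.01 for Rtp4, 0.00 for Oasl2 and 0.10 for Bst2, the gene of tetherin, which holds budding virus at the cell surface. Cxcl10, a chemokine for T cells that interferon gamma induces, was below the level tested, with 0.171, 0.466, 0.922 and 2.60 CPM under high salt, against 0.910, 1.46, 0.510 and 0.0380 CPM under normal salt. The diets spanned much the same low range. Mx1, an antiviral dynamin that C57BL/6 mice carry in a defective form, was at 0 in 4 of the 8 libraries, and its highest value was 0.448 CPM, or 31 estimated counts, in high-salt library 6. Mx2 had 0.319 to 0.616 CPM under high salt and 0.159 to 0.774 CPM under normal salt.

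**Figure D4:**
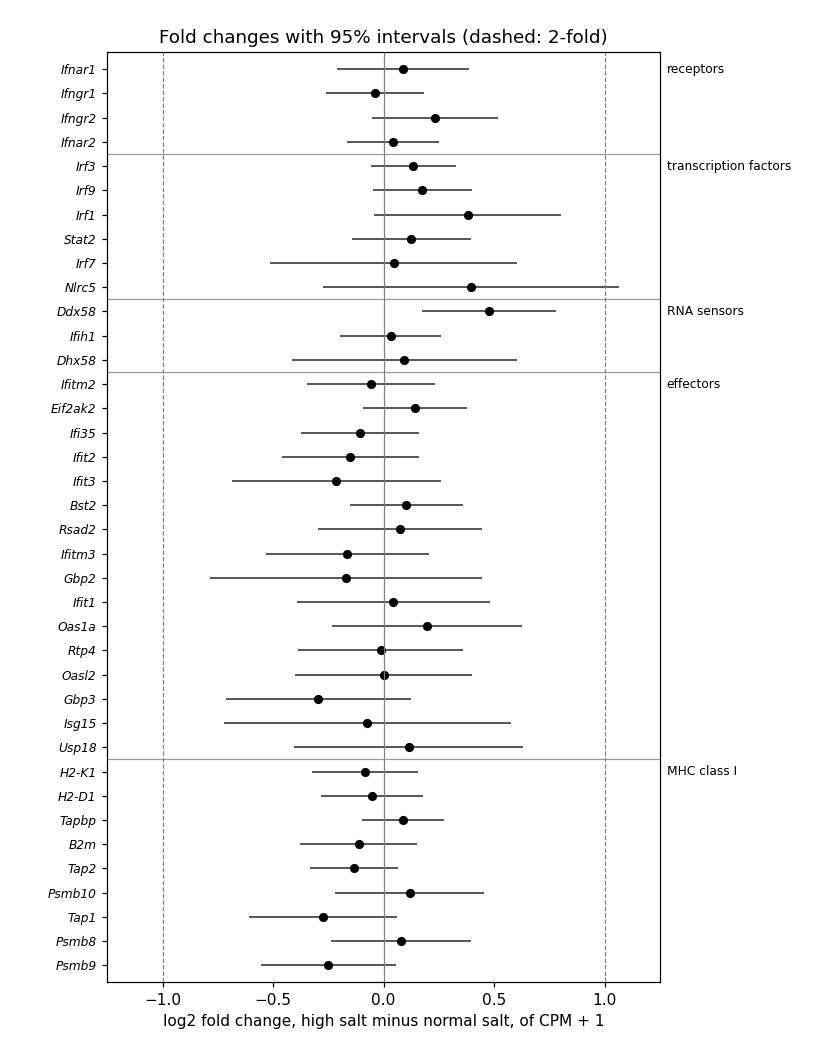
Log2 fold changes of the 38 tested members on the log2(CPM + 1) scale, high salt minus normal salt, with 95% intervals from limma and genes grouped by role. The interval of Ddx58 lies above 0, those of the other 37 members include 0, and only that of Nlrc5 passes a dashed line at a 2-fold change.

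The heavy and light chains of MHC class I were the most abundant members. By mean TPM over all libraries H2-K1 had 601, H2-D1 401 and B2m 305, followed by Ifitm2 with 182 and Tapbp with 174, whereas Tap1 had 9.47 and Psmb9 8.10. H2-K1 stood at percentile 98.4 of all tested genes. H2-K1, a classical heavy chain, had 428, 477, 473 and 453 CPM under high salt, against 506, 428, 445 and 571 CPM under normal salt. The high-salt libraries lay inside the normal-salt range, except library 2, which was level with its low end (log2 fold change -0.08, SE 0.11, 95% interval -0.32 to 0.15). H2-D1, the other classical heavy chain, had 461, 459, 477 and 411 CPM under high salt, against 474, 442, 422 and 545 CPM under normal salt (-0.05, 95% interval -0.28 to 0.17). Of their 50-base stretches 9.63% for H2-K1 and 12.8% for H2-D1 also occur in transcripts of other genes, with H2-Q10 sharing most with H2-K1 and H2-Q1 sharing most with H2-D1. B2m averaged 109 ± 8.19 CPM under high salt and 119 ± 19.1 CPM under normal salt, and Tapbp, the gene of tapasin, which holds class I at the peptide transporter, 235 ± 15.2 and 221 ± 10.6 CPM (SD, n = 4 each).

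The peptide transporter TAP has 2 subunits, and both genes had lower means under high salt without passing. Tap1 had 16.0, 12.3, 19.2 and 16.4 CPM under high salt, against 19.3, 19.9, 16.1 and 22.3 CPM under normal salt (log2 fold change -0.28, SE 0.15, adjusted p = 0.573). Tap2 had 43.1, 44.7, 48.2 and 50.9 CPM under high salt, against 51.3, 49.1, 54.4 and 50.4 CPM under normal salt (-0.13, SE 0.09, adjusted p = 0.655). In both genes 3 of the 4 normal-salt libraries stood above 3 of the 4 high-salt libraries.

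The immunoproteasome subunits, which replace standard proteasome subunits and shape the peptides for class I, did not share a direction. Psmb9 had 4.71, 4.26, 5.25 and 5.06 CPM under high salt, against 6.45, 6.03, 5.205 and 6.00 CPM under normal salt, where library 3 alone reached into the high-salt range (log2 fold change -0.25, SE 0.14, adjusted p = 0.573). In TPM it had 5.68, 6.94, 7.75 and 6.38 under high salt, against 8.59, 9.67, 8.35 and 11.4 under normal salt. These do not overlap, and the log2(TPM + 1) fold change was -0.45 (SE 0.16, unadjusted p = 0.0169, adjusted p = 0.392 by limma), so it did not pass. Psmb8 had 9.35, 11.3, 8.62 and 8.51 CPM under high salt, against 10.4, 7.58, 8.83 and 8.74 CPM under normal salt (0.08, SE 0.14, adjusted p = 0.891). Psmb10 had 25.5, 27.7, 19.6 and 23.7 CPM under high salt, against 26.7, 23.7, 21.2 and 17.4 CPM under normal salt (0.12, SE 0.15, adjusted p = 0.834). Tap1 and Psmb9 are neighbours read from opposite strands, and their promoter windows share 275 bases of chromosome 17, from 34187306 to 34187580. The genes also overlap there in GENCODE M21, and without a stated strand setting of the counting their reads cannot be fully told apart. This limit is not theirs alone. In that annotation 18 of the 42 members overlap a gene on the other strand, among them Irf3, Irf7 and B2m. An overlap on the same strand is listed for 6 members, among them Irf9 and Ifnar2.

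Fold changes were also set beside the promoter matches. The median was 0.03 for the 15 tested members with a match to the response element core (8 higher, 7 lower), beside 0.04 for the 18 tested members whose window had none (10 higher, 8 lower). For TTCNNNGAA it was 0.08 for 10 tested members with a match, 7 of them higher, beside 0.00 for 23 without, 11 of them higher. These are descriptions with no test.

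Libraries of 1 diet also differed among themselves. In the normal-salt group libraries 2 and 6 both stood above libraries 1 and 3 in 14 of the 38 tested members (36.8%), a grouping noticed after the values were seen, against 20.1% of all genes tested. They were Ifnar1, Stat2, Irf1, Irf7, Irf9, Nlrc5, Usp18, Ifit1, Ifit2, Ifit3, Oas1a, Rsad2, Gbp3 and Tap1. Ifit3 had 22.98 and 22.7 CPM in normal-salt libraries 2 and 6, and 14.5 and 17.1 CPM in libraries 1 and 3. The high-salt libraries had 12.4, 12.6, 20.03 and 21.9 CPM of it, also with a low and a high pair.

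The interferons themselves were barely detected. Of 20 interferon genes, among them Ifnb1, Ifng, the Ifna genes and the lambda interferons Ifnl2 and Ifnl3, 16 were at 0 in all 8 libraries. A count of 0 allows up to 3 counts, which was 0.0342 to 0.0434 CPM per high-salt library and 0.0319 to 0.0463 CPM per normal-salt library, for counting error only. Ifng was at 0 in the 4 high-salt libraries, and under normal salt had 9 estimated counts in library 1 and 0 in the other 3.

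Further genes of the pathway did not pass the test either. Of 116 other tested genes in lists for signalling, nucleic acid sensing, other interferon-stimulated genes, class I and class II, 0 passed over all genes, 9 had an unadjusted p under 0.05 (3 with a higher and 6 with a lower mean), and the median log2 fold change was 0.02. Over all genes tested 0.0821% passed, and 5.95% were higher and 4.37% lower at an unadjusted p under 0.05. By list, 17 signalling genes, 17 sensing genes and 6 class II genes had 0 at an unadjusted p under 0.05, where 51 interferon-stimulated genes had 3 higher and 4 lower and 25 class I pathway genes had 2 lower. The smallest p was that of Slfn9, a Schlafen gene, which had 7.18, 6.91, 9.20 and 15.1 CPM under high salt, against 4.01, 3.49, 1.20 and 0.951 CPM under normal salt. Every high-salt library stood above every normal-salt library. It averaged 9.60 ± 3.82 CPM under high salt and 2.41 ± 1.56 CPM under normal salt (log2 fold change 1.70, SE 0.34, adjusted p = 0.0937), and 11.5% of its stretches occur in other genes. Tdrd7 had 116 ± 11.0 CPM under high salt and 91.7 ± 4.93 CPM under normal salt (adjusted p = 0.199), and Lgals3bp 47.3 ± 3.97 and 38.3 ± 3.47 CPM (adjusted p = 0.323). Slfn9, Tdrd7 and Lgals3bp were the 3 higher genes of their list, and the 4 lower ones had larger p-values and are not named. Fcgrt, the neonatal Fc receptor that pairs with B2m, had 40.7 ± 4.30 CPM under high salt and 55.5 ± 9.11 CPM under normal salt (-0.43, SE 0.13, adjusted p = 0.225). In Slfn9, Tdrd7, Lgals3bp and Fcgrt, and in Rfxank named below, the diets did not overlap, as in 7 of the 116 genes in all, near the 6.40% over all genes tested. Among the sensing genes the 3 smallest p-values were those of Sting1, the adaptor of DNA sensing (log2 fold change 0.32, adjusted p = 0.639), of Tbk1, the kinase of IRF3 (0.15, adjusted p = 0.646), and of Tlr3, an endosomal RNA receptor (0.14, adjusted p = 0.655). Among signalling genes they were those of Stat3 (0.12), Irf2bp1 (0.13) and Ifnlr1, the lambda interferon receptor chain (-0.17), with adjusted p-values of 0.771 to 0.786. Rfxank and Rfxap, subunits of the factor that binds MHC promoters, had log2 fold changes of -0.22 and -0.37 (adjusted p = 0.461 and 0.495). In class II they were those of H2-DMb1 (0.16), H2-Aa (-0.58) and H2-Eb1 (-0.38), with adjusted p-values of 0.701 to 0.782.

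Interferon-responsive genes are also expressed by immune cells, so markers of such cells, and of other cell types, are given beside the members. Of markers of the collecting duct itself, Aqp2, the water channel of principal cells, had 14296 to 18026 CPM under high salt and 7581 to 12288 CPM under normal salt. The 12 principal cell markers summed to 26809 to 32644 CPM under high salt and 19359 to 24452 CPM under normal salt, and the 10 intercalated cell markers to 7398 to 8608 CPM under high salt and 9138 to 9632 CPM under normal salt. None of these 3 overlapped between the diets, and they were not tested as sums. Aqp2 and the principal cell sum were higher and the intercalated cell sum lower under high salt. The mean log2(CPM + 1) of the intercalated list did not overlap, at 9.03 to 9.14 under high salt and 9.29 to 9.44 under normal salt. Rhcg, Rhbg, Atp6v1b1 and Atp6v0d2 were lower without overlap, and the other markers of that list overlapped. Among these was Slc4a1, with 2072 to 3017 CPM under high salt and 2074 to 3257 CPM under normal salt. Of the 10 intercalated markers 0 were called. Aqp2 and Aqp3 made up most of the principal cell sum. In that list Aqp3 and Stc1 were also higher without overlap, and Scnn1b lower. Scnn1a was lower too, with 352 to 650 CPM under high salt and 1086 to 1394 CPM under normal salt. The mean log2(CPM + 1) of the 12 overlapped, at 9.73 to 9.92 under high salt and 9.57 to 9.74 under normal salt. Of the 12 principal cell markers 1 was called, beside 0.0821% of all genes tested. The diets did not overlap in 6.40% of all genes tested. The 16 macrophage and dendritic markers summed to 21.3 to 34.5 CPM under high salt and 21.4 to 72.6 CPM under normal salt, 7 of the 16 were tested and 0 were called. None of them was at 0 in all libraries. The highest sum was that of normal-salt library 1, which also had the highest C1qa (7.19 CPM, against 0.0932 to 1.65 CPM under high salt and 0.596 to 1.75 CPM in the other normal-salt libraries). Ptprc, which encodes the pan-leukocyte protein CD45 and is in the same list, ran the other way, with 17.3, 13.5, 13.0011 and 12.5 CPM under high salt, against 8.48, 10.2, 8.53 and 10.5 CPM under normal salt. It made up 17.3 of the 28.9 CPM summed in high-salt library 2 and 13.5 of 21.3 CPM in high-salt library 3. Under normal salt it was 8.48 of 72.6 CPM in library 1 and 10.5 of 21.4 CPM in library 6. The diets did not overlap in Ptprc, as in 6.40% of all genes tested, and its lowest value was that of normal-salt library 1. That library had the highest values of B2m and Psmb9 and of the class II gene H2-Aa, at 143, 6.45 and 10.9 CPM, and it had the lowest values of Stat2, Irf7, Ddx58 and Ifnar1 over all 8 libraries. The 13 thick ascending limb markers, of the neighbouring nephron segment, summed to 326 to 3081 CPM under high salt and 885 to 2465 CPM under normal salt, and none was at 0 in all libraries. Most of the low sums was Kcnj10, which had 192 to 271 CPM under high salt and 239.6 to 269.9 CPM under normal salt. Umod, which encodes uromodulin, had 46.5, 35.7, 248 and 1695 CPM under high salt, against 1368, 537, 355 and 864 CPM under normal salt, a wide spread within each diet. Lymphocyte markers summed to 2.80 to 5.48 CPM under high salt and 2.66 to 3.82 CPM under normal salt, and neutrophil markers to 0 to 0.564 CPM under high salt and 0.185 to 0.254 CPM under normal salt. The lymphocyte sums were nearly all Cd79b, a B cell receptor chain, at 2.69 to 4.90 CPM under high salt and 2.45 to 3.82 CPM under normal salt, and none of the other 9 markers passed 0.479 CPM in any library. The 10 endothelial markers summed to 217 to 345 CPM under high salt and 234 to 362 CPM under normal salt. The 10 fibroblast and pericyte markers summed to 84.7 to 194 CPM under high salt and 74.2 to 323 CPM under normal salt. Their highest sum was also that of normal-salt library 1, and 0 markers of either list were called. The part of all these cells in the members' values was not tested. In pooled ducts, fewer cells of a type and less RNA per cell cannot be told apart.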

How the data were processed

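RNA of 8 libraries, 4 per diet, was sequenced after a stranded mRNA kit, per the labels' protocols. FastQC and Trimmomatic were used and the build was mm10, per the submitters' processing notes, and no source read here names the aligner, counting program or annotation. The authors deposited log2 CPM values with a shared floor of -5.29, and a table of TPM. Column names gave the diet and a number that could not be tied to a sample title, so a library is called by its diet and its column's number. CPM were recovered as 2 to the power of each value less that of the floor, and each library was then scaled to a total of 1e+06. Steps in CPM gave depths of 69.2 to 87.7 (high salt) and 64.8 to 94.1 (normal salt) times 1e+06 estimated counts per library, with 84.1% to 85.7% of values whole within 0.005 counts, so no count model was used.

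Genes with at least 1 CPM in at least 4 libraries were compared on log2(CPM + 1) in limma (version 3.58.1, R version 4.3.3, trend, two-sided, Benjamini-Hochberg over all genes, threshold 0.05). The test was checked on simulated data with noise drawn independently for each gene, so differences shared by many genes of a library were not covered. P-values of single genes are limma's. Values by library are given for members with an unadjusted p under 0.05 or diets that do not overlap, the 3 smallest p and the highest mean TPM of each role group, and 3 paralogue sets (Ifitm, H2 and Psmb genes). Of further lists up to 3 genes with the smallest p are named. Irf7, Ifit3, Cxcl10, Mx1, Slfn9 and the immune markers given by library were chosen after their values were seen. Members and lists were chosen with earlier results of these data known. Sting1 and Cgas were matched from older symbols. Alternatives covered the pseudocount, filter, scaling, TPM, robust moderation, marker covariates and leaving out each library. Positions and shared 50-base stretches came from GENCODE M21.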

Additional observations from a re-analysis of the deposited data

Results flagged for a closer look

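In 3 of 76 groups of 4 libraries (38 tested members, 2 diets), 1 library stood apart from the other 3 by more than Dixon's 95% critical value, where chance flags about 1 in 20 groups. Ifnar2 had 29.4 CPM in high-salt library 3, and 25.97 to 26.3 CPM in the other high-salt libraries. Irf7 had 3.69 CPM in high-salt library 3, and 5.12 to 5.42 CPM in the others of that diet. Ifngr2 had 41.5 CPM in normal-salt library 2, and 35.8 to 36.5 CPM in the others of that diet, although the ratio of TPM to CPM did not set that library apart.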

How the results depend on the processing

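Members called numbered 0 in the reported analysis and in all 15 alternatives, and the median log2 fold change of the members was 0.00127 to 0.0484 with each library left out. Of 315 fold changes (21 named members under 15 alternatives) 11 changed sign and 0 came to pass the threshold, the smallest adjusted p being 0.127 by limma. Genes called over the whole table, 11 as reported, were 0 without a filter on level, 22 with robust moderation, 43 with thick ascending limb markers as a covariate, 61 with macrophage markers as a covariate, and 0 to 50 with each library left out. Members at an unadjusted p under 0.05, 1 as reported, were 3 in TPM, 2 with the thick ascending limb covariate, 3 with the macrophage covariate, and 2 to 3 with a library left out. Signs turned for Ifih1 (-0.0157) and Ifitm2 (0.0124) with the thick ascending limb covariate, and for Ifnar1 (-0.0411) and Ifitm2 (0.0627) with the macrophage covariate. With a library left out, log2 fold changes ran from -0.0432 to 0.177 for Ifnar1, -0.0673 to 0.252 for Dhx58, -0.000919 to 0.0851 for Ifih1, -0.128 to 0.0738 for Ifitm2, -0.104 to 0.0182 for H2-D1 and -0.00251 to 0.151 for Psmb8. The Ifngr2 difference in TPM over CPM was 0.55 without centring, which no longer passed, and 0.48 to 0.54 with a library left out. The cause was not tested. No paired analysis was possible because the column numbers could not be tied to sample titles and nothing in the labels links mice of the 2 diets. The interval of Nlrc5, at -0.27 to 1.06, was the widest of the tested members, followed by Isg15 and Gbp2.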
